A study of Mus musculus with 10 samples.

Results

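The mRNAs described here encode the nuclear-encoded proteins of respiratory complexes II to V and cytochrome c. Genes were taken by name (Sdha to Sdhd, Uqcr, Cyc1, Cycs, Cox4 to Cox8 and Atp5), their transcripts were summed, and a mean of at least 5 TPM (transcript abundance per length and library) over all libraries was required. Of 46 genes with such a name, 44 met this minimum, among 9853 genes of the table that did. They comprise 4 genes of complex II, 9 of complex III, 1 for cytochrome c, 14 of complex IV and 16 of complex V. The genes just outside were Cox6a2 at a mean of 2.82 TPM and Atp5s at 4.31 TPM, and those just inside were Cox4i2 at 8.44 TPM and Atp5sl at 13.2 TPM. The match by name also admits Atp5sl, also called Dmac2, which encodes an assembly factor of complex I and not a subunit of ATP synthase. The other 43 encode subunits, proteins related to them (Cox7a2l) or, for Cycs, the soluble carrier.

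Complex II (succinate dehydrogenase) passes electrons from succinate to ubiquinone, complex III passes them from ubiquinol to cytochrome c, and complex IV passes them from cytochrome c to oxygen. Complexes III and IV pump protons as they do so, and complex V (ATP synthase) makes ATP as protons flow back through its c ring. Most of these proteins are encoded in the nucleus and imported into mitochondria after synthesis on cytosolic ribosomes, and axons and neurites hold mitochondria and some of these mRNAs far from the nucleus. The few subunits encoded by mitochondrial DNA were not analysed here.

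N2A (Neuro2a) cells, a mouse neuroblastoma line, were transfected transiently with plasmids, plated on membranes with 1 µm pores and left to grow neurites for 48 h without serum, and neurites were then separated from soma. CTG480 cells received, under a CMV promoter, 480 CTG repeats within part of DMPK, and 2 other groups the motorless tail of the kinesin Kif1bα or Kif1c fused to EGFP. Controls were the same part of DMPK with 0 repeats (CTG0) and the Kif1bβ tail fused to EGFP. The repeats were meant to sequester Muscleblind-like (MBNL) RNA binding proteins, and the tails to block the kinesins that carry MBNL1. Wells of each transfection were pooled, and each gave 1 neurite and 1 soma library, so there were 5 neurite and 5 soma libraries and no transfection was replicated.

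The deposited values are TPM made comparable between libraries by the authors. The columns sum to 870745 to 892618 TPM in neurites and 1045620 to 1183540 TPM in soma, and read depth is unknown. The fractions differed in nuclear RNA, but neurite libraries also held it: 6 RNAs retained in nuclei summed to 1140.4 to 1441 TPM in neurites and 1565 to 1917 TPM in soma. Malat1 alone averaged 1225 TPM in neurites and 1653 TPM in soma. The part of nuclear RNA in the results below was not tested. Of 15 neuroblastoma and neuron markers 10 reached 5 TPM, while none of 6 glial, 5 fibroblast and 4 leukocyte markers did, and of 5 muscle markers only Myh3 did. Glial markers summed to 2.89 to 3.79 TPM in neurites and 2.78 to 4.07 TPM in soma.

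The mRNAs of respiratory complexes II to V lay more often on the neurite side than genes did in general. Between neurites and soma, with transfection as a block (limma, adjusted p under 0.05 over 9853 genes), 18 of 44 were higher in neurites, or 40.9%, against 19.4% of all genes tested. Another 6, or 13.6%, were higher in soma, against 18.6% of all genes, and 20 were not called. In either direction 24 members were called, or 54.5%, against 38% of all genes. The members are abundant, with a median level of 243 TPM against 23.4 TPM over 9409 genes of known coding length. With a minimum mean of 20 TPM, 22 of 42 members and 1406 of 5527 genes were higher in neurites. On the soma side these were 5 members and 1282 genes. The part of abundance in these shares was not tested. The difference, log2 of neurite over soma TPM with 0.1 TPM added to each, is called the localization ratio. Its mean over the 5 transfections ran from −0.42 to 0.63 among the members with a median of 0.14, beside a median of 0.01 over all genes, so most differences were small. P-values here measure the spread between transfections of 1 experiment. In bulk fractions scaled to one another, more of an mRNA per neurite and less of the other RNAs there cannot be told apart, nor can fewer cells and less RNA per cell.

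In 16 of the 18 neurite-side genes the 5 neurite libraries all lay above the 5 soma libraries, the exceptions being Cox4i1 and Cox7a2l. These 16 made up 36.4% of the 44 members, against 13.7% of all genes. Of the 6 soma-side genes, 2 (Atp5c1 and Cox5b) had all neurite libraries below all soma libraries. These 2 made up 4.55% of the 44 members, against 14.3% of all genes. The localization ratio was above 0 in 5 of 5 transfections for 19 members (23% of all genes) and below 0 in 5 of 5 for 5 members (20.9% of all genes). Summed over the 44 genes, the mRNAs amounted to 12850, 12687, 12631, 12719 and 12924 TPM in neurites of CTG480, CTG0, Kif1bα tail, Kif1c tail and Kif1bβ tail cells, against 11787, 11713, 11377, 11541 and 11705 TPM in soma. The neurite sums all lay above the soma sums, by 0.12 to 0.15 on the log2 scale.

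The sign of a small difference depends on the scale. When each library was instead rescaled to a sum of 1000000 TPM, the median of all genes moved up by 0.33. On that scale 36 members were called higher in neurites and 0 higher in soma. Of the 6 soma-side genes Cox5b, Cox6a1, Atp5k and Cox7b2 turned positive, and 2 of the 6 were then called on the neurite side. Relative to the median of all genes the members did not move: their median lay 0.13 above it on both scales, the 18 neurite-side genes lay 0.10 to 0.62 above it, and the 6 soma-side genes lay below it on both.

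**Figure D1:**
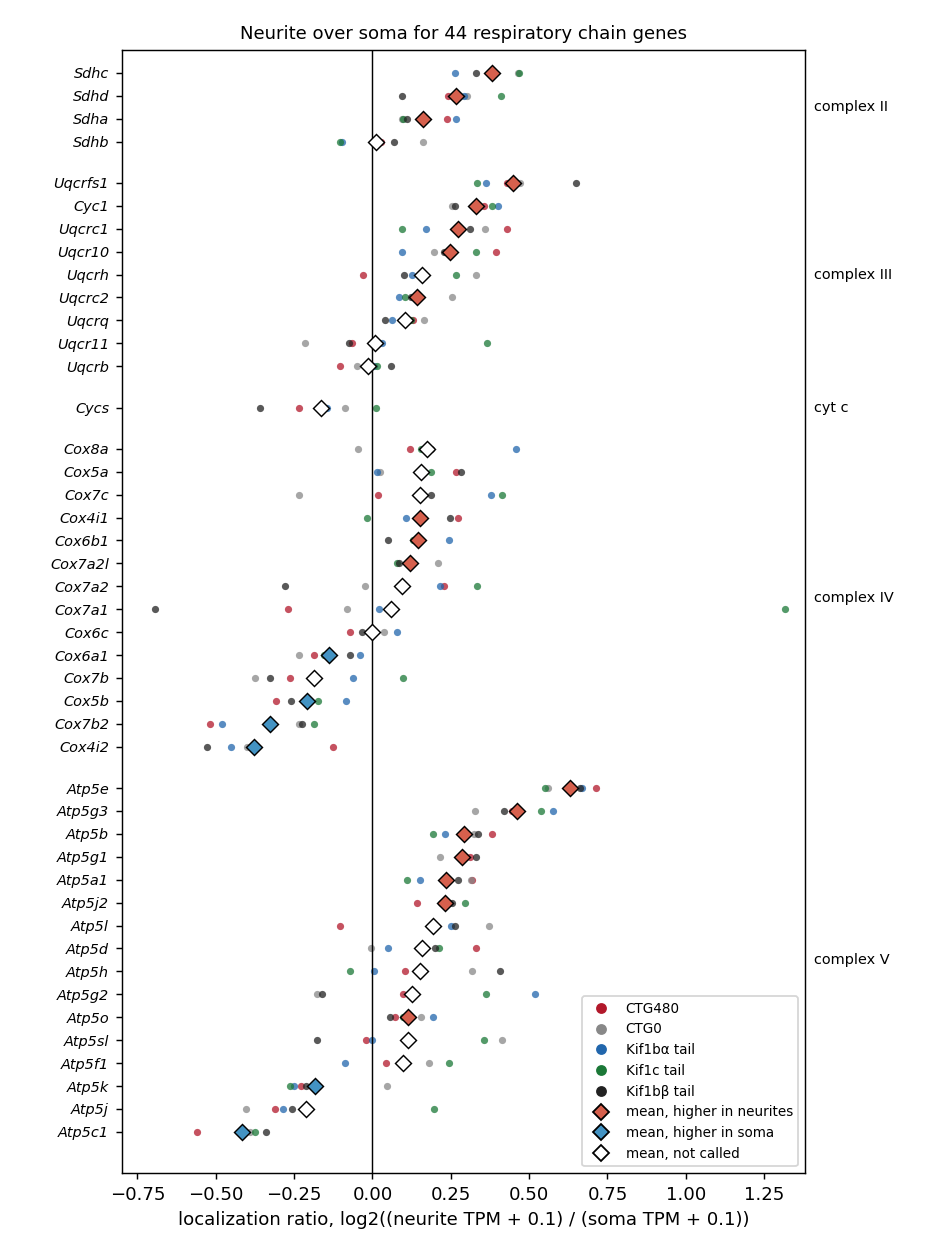
Localization ratio (log2 of neurite over soma TPM, 0.1 added to each) of the 44 genes, grouped by complex. Dots are the 5 transfections, diamonds their means, red where limma called the gene higher in neurites (18 genes), blue where higher in soma (6 genes, of which Cox5b, Cox6a1, Atp5k and Cox7b2 turn positive when libraries are rescaled to 1 common sum) and white where not called (20 genes). Complexes II and III have no blue diamond.

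In complex II, 3 of the 4 mRNAs were higher in neurites, beside 19.4% of all genes. Sdhc, which with Sdhd anchors the complex in the inner membrane, had 125, 133, 124, 135 and 131 TPM in neurites of CTG480, CTG0, Kif1bα tail, Kif1c tail and Kif1bβ tail cells, against 95.7, 96.4, 103, 97.8 and 105 TPM in soma, an order of transfections kept throughout. No soma library reached the lowest neurite library, and the difference was 0.38 ± 0.0432 (log2 ± SE, limma adjusted p = 0.00093). Sdhd, the partner anchor, had 88.7, 85.3, 92.1, 92.2 and 84.4 TPM in neurites and 75.1, 69.2, 75.2, 69.4 and 79.1 TPM in soma, again without overlap (0.27 ± 0.05, limma adjusted p = 0.00582).

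Of the catalytic subunits of complex II, Sdha was called and Sdhb was not, and they were not tested against each other. Sdha, the flavoprotein that oxidizes succinate, had 82.3, 77.4, 81.5, 78.6 and 79.4 TPM in neurites and 69.7, 72.4, 67.7, 73.5 and 73.7 TPM in soma. The groups did not overlap and the difference was small, at 0.16 ± 0.0433 (limma adjusted p = 0.0227). Its call was lost without CTG480 or without the Kif1bα tail, with adjusted p up to 0.078. Sdhb, the iron-sulfur subunit that sits between Sdha and the anchors, had 288, 317, 264, 288 and 291 TPM in neurites and 283, 283, 283, 309 and 278 TPM in soma, and was not called (0.01, limma adjusted p = 0.88). Its fractions overlapped, and its ratio was above 0 in 3 transfections and below 0 in 2.

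Complex III contributed 5 genes higher in neurites and 0 higher in soma of 9 (55.6% and 0%, beside 19.4% and 18.6% of all genes), and the 5 included its redox-carrying and core subunits. Uqcrfs1, the Rieske iron-sulfur protein, had 101, 103, 92.0, 95.2 and 110.5 TPM in neurites and 75.1, 74.3, 71.6, 75.4 and 70.4 TPM in soma. The fractions were well apart in every transfection (0.45 ± 0.0522, limma adjusted p = 0.00102). Cyc1, cytochrome c1, which hands electrons to cytochrome c, had 269, 256, 244, 246 and 258 TPM in neurites and 210.4, 214, 185, 189 and 215 TPM in soma. Its difference was 0.33 ± 0.0388 (limma adjusted p = 0.00103), with ratios from 0.25 to 0.40.

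The core subunits Uqcrc1 and Uqcrc2, which face the matrix and descend from a processing peptidase, were both higher in neurites. Uqcrc1 averaged 140.3 ± 7.99 TPM in neurites and 116 ± 4.94 TPM in soma (SD, n = 5 each; log2 difference 0.27, limma adjusted p = 0.00763). Uqcrc2 averaged 94.1 ± 2.17 TPM in neurites and 85.3 ± 3.31 TPM in soma (0.14, limma adjusted p = 0.0259), and was no longer called without CTG480, CTG0 or the Kif1bβ tail (adjusted p up to 0.0837). Among the 5 small subunits only Uqcr10 was called, at 285 ± 19.5 TPM in neurites and 239.7 ± 8.80 TPM in soma (0.25, limma adjusted p = 0.0075).

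The other 4 small subunits of complex III were not called. Uqcrq had a ratio above 0 in 5 of 5 transfections (0.10, limma adjusted p = 0.0584), and Uqcrh, the hinge protein, in 4 of 5 (0.16, limma adjusted p = 0.0582). Uqcrb at −0.01 and Uqcr11 at 0.01 were close to even. The ratio of Uqcr11 ran from −0.22 in CTG0 to 0.36 in Kif1c tail cells, and its mean without Kif1c tail cells was −0.08.

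Cycs, cytochrome c, the carrier between complexes III and IV that also triggers apoptosis once released into the cytosol, was not called. It had 31.2, 33.0, 31.7, 31.9 and 27.8 TPM in neurites and 36.7, 35.0, 35.1, 31.6 and 35.7 TPM in soma. Its neurite values were lower in 4 of 5 transfections (−0.16 ± 0.059, limma adjusted p = 0.0633), and in Kif1c tail cells the fractions were nearly equal.

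**Figure D2:**
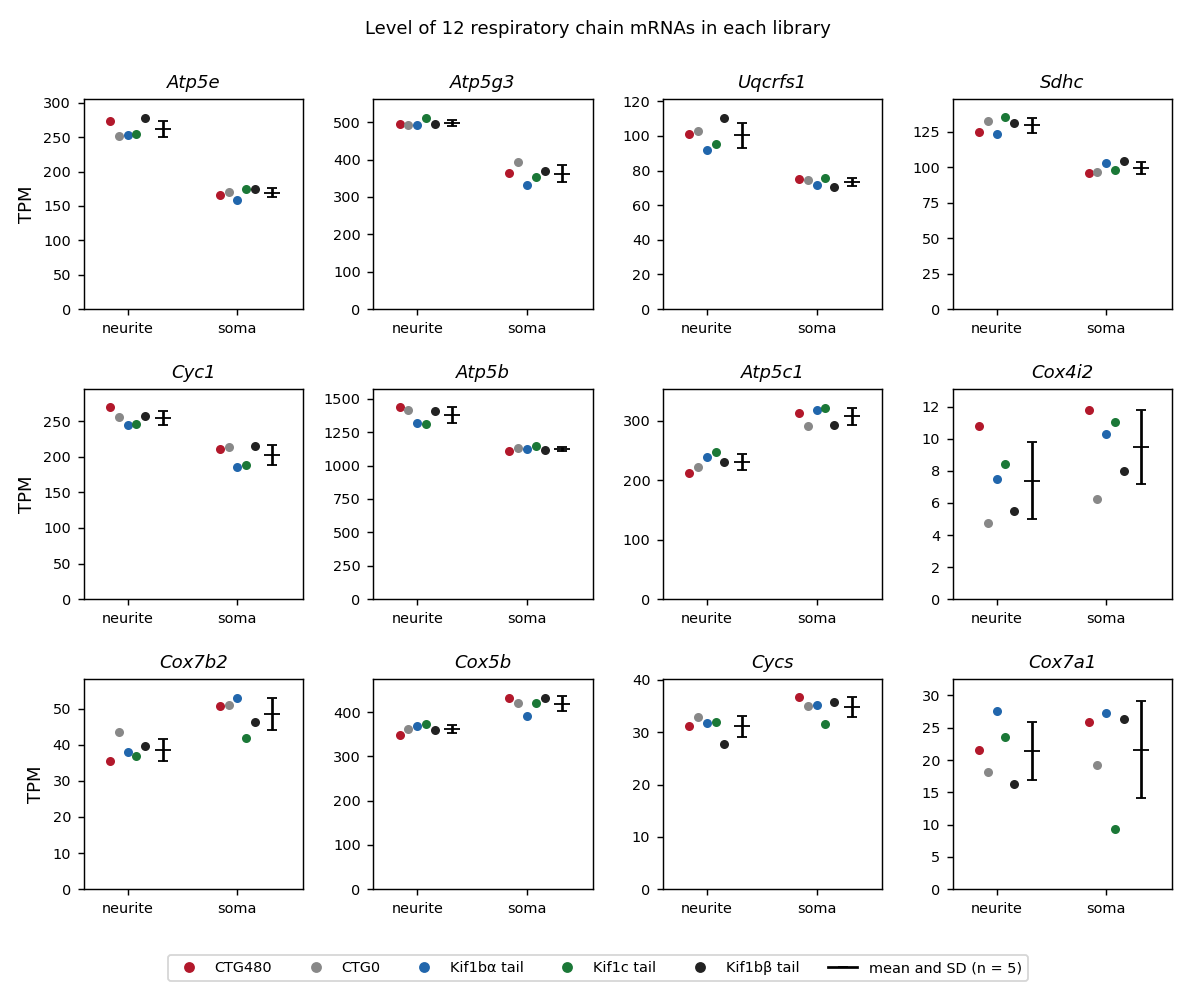
TPM of 12 mRNAs in each library (dots, coloured by transfection), with mean and SD (n = 5) beside them, neurites left of soma and axes starting at 0. Atp5e, Atp5g3, Uqcrfs1, Sdhc, Cyc1 and Atp5b lie higher in neurites without overlap, Atp5c1 and Cox5b lower without overlap (on the deposited scale, since Cox5b turns positive when libraries are rescaled to 1 common sum), and Cox7a1 has its lowest soma value, 9.39 TPM, in Kif1c tail cells.

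Complex IV had 3 of 14 mRNAs higher in neurites, 4 higher in soma and 7 not called, with a median of 0.08. Its shares of 21.4% and 28.6%, beside 19.4% and 18.6% of all genes, differed from these by less than 2 genes. Those higher in neurites differed by little. Cox4i1, the common form of subunit 4, was among the most abundant members at 983 ± 57.7 TPM in neurites and 884 ± 29.2 TPM in soma (0.15, limma adjusted p = 0.0495), with a ratio of −0.02 in Kif1c tail cells. Cox6b1, which faces the intermembrane space, averaged 417 ± 11.3 TPM in neurites and 378 ± 21.3 TPM in soma (0.14, limma adjusted p = 0.0238). Cox7a2l, which joins complex IV to complex III in supercomplexes, averaged 223 ± 11.1 TPM in neurites and 206 ± 12.7 TPM in soma (0.12, limma adjusted p = 0.0353).

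None of these 3 calls held each time a transfection was left out. Cox4i1 was called only without the Kif1c tail (adjusted p up to 0.15 otherwise), Cox6b1 only without the Kif1c or the Kif1bβ tail (up to 0.0685 otherwise), and Cox7a2l in no such fit (up to 0.113).

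The complex IV mRNAs higher in soma were Cox4i2, Cox7b2, Cox5b and Cox6a1, and the last 3 turned positive when libraries were rescaled to 1 common sum, at 0.01, 0.13 and 0.20. Cox4i2, the alternative form of subunit 4, had 10.8, 4.72, 7.51, 8.42 and 5.53 TPM in neurites and 11.8, 6.26, 10.3, 11.0 and 8.01 TPM in soma. Its fractions overlapped because its level differed between transfections, while the ratio was below 0 in each (−0.38 ± 0.0802, limma adjusted p = 0.0095). Cox7b2, a paralog of Cox7b, had 35.5, 43.4, 37.9, 36.8 and 39.6 TPM in neurites and 50.8, 51.1, 52.8, 42.0 and 46.2 TPM in soma (−0.33 ± 0.0621, limma adjusted p = 0.00603).

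Cox5b, a zinc-binding subunit on the matrix side, had 349, 361, 369, 372 and 360.3 TPM in neurites and 432, 419, 391, 419.9 and 431 TPM in soma. The neurite libraries all lay below the soma libraries (−0.21 ± 0.0424, limma adjusted p = 0.00814). Cox6a1, the widely expressed form of subunit 6a, had 443, 449, 431, 445 and 446 TPM in neurites and 505, 528, 443, 495 and 469 TPM in soma. Its fractions overlapped, through the Kif1bα tail soma library (−0.14 ± 0.0415, limma adjusted p = 0.0341), and the call was lost in each fit that left out a transfection other than the Kif1bα tail (adjusted p up to 0.107).

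Of the 7 complex IV mRNAs not called, Cox8a, Cox5a and Cox7c had the highest mean ratios, at 0.17, 0.16 and 0.15, and Cox7b the lowest at −0.19. Cox5a, the partner of Cox5b, was above 0 in 5 of 5 transfections (limma adjusted p = 0.0506). Cox6c, at 429 ± 9.67 TPM in neurites and 429.5 ± 17.3 TPM in soma, was even between fractions. Cox7a2, the common form of subunit 7a, had a mean ratio of 0.09 and Cox7a1, the form known from heart and muscle, 0.06. The Cox7a1 mean rested on Kif1c tail cells, where the ratio was 1.32, and was −0.26 without them. For Cox7c, 43.7% of the 31-base words of its transcript also occur in Gm10012, another gene of the table, so its reads could be split.

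Among the 16 complex V genes, 7 were higher in neurites and 2 higher in soma (43.8% and 12.5%, beside 19.4% and 18.6% of all genes). The catalytic F1 head, made of alpha, beta, gamma, delta and epsilon subunits, held the members with the highest and the lowest localization ratio. Atp5e, the epsilon subunit, gene at chr2:174461072-174464105 on the minus strand of GRCm38, had 273, 252, 254, 256 and 277 TPM in neurites and 167, 171, 159, 175 and 175 TPM in soma. Every neurite library lay far above every soma library, at 1.55-fold (0.63 ± 0.0396, limma adjusted p = 0.000437), and the ratio stayed between 0.55 and 0.71. Its protein of 52 codons is among the shortest encoded by these genes, and none of its 31-base words occurs in another annotated gene.

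Atp5c1, the gamma subunit that turns inside the head and sits beside epsilon in the central stalk, went the other way. The gene, at chr2:10056016-10080510 on the minus strand of GRCm38, had 213, 222, 239.6, 248 and 231 TPM in neurites and 314, 291, 318, 322 and 293 TPM in soma. Its neurite libraries all lay below its soma libraries, at 0.75-fold (−0.42 ± 0.0421, limma adjusted p = 0.000698), and it was called in each of the 5 fits that left out a transfection. On rescaling to 1 common sum it kept its sign at −0.08 but was not called. The difference lay in the transcript NM_020615, at 225 ± 14.9 TPM in neurites and 303 ± 15.3 TPM in soma, while the second transcript, NM_001112738, was at 5.87 ± 1.47 TPM in neurites and 4.91 ± 1.52 TPM in soma.

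Atp5a1 and Atp5b, the alpha and beta subunits that carry the nucleotide binding sites, were higher in neurites. Atp5b, the most abundant member, had 1440.4, 1415, 1317, 1314 and 1409.9 TPM in neurites and 1107, 1131, 1120.3, 1149 and 1116 TPM in soma, without overlap (0.29 ± 0.0429, limma adjusted p = 0.00225). Atp5a1 averaged 395 ± 17.9 TPM in neurites and 336 ± 11.6 TPM in soma (0.23, limma adjusted p = 0.00634). Atp5d, the delta subunit, was not called (0.16, limma adjusted p = 0.0535).

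The c ring of the motor is built from a single mature protein that 3 genes encode with different import sequences. Their coding ends are shown because they carry the same residues in different bases, by which reads can be told apart between these 3 genes. This does not separate them from other genes: 87.7% of the 31-base words of Atp5g2 also occur in other annotated genes. The last 30 coding bases before the stop codon, on exon 5 of each gene as annotated by GENCODE on GRCm38, are as follows, with capitals at the 8 positions where the 3 genes are not all alike.
Atp5g1: atggtCgcCttCCtCatcCtCttCgccatg
Atp5g2: atggtGgcCttTCtCatcCtCttCgccatg
Atp5g3: atggtTgcGttCTtGatcTtGttTgccatg
These lie at chr11:96073107-96073136, chr15:102663017-102663046 and chr2:73908596-73908625, each on the minus strand. Over the last 75 codons all 75 encoded residues are identical between any 2 of the genes, while the bases are identical at 84.9% of positions between Atp5g1 and Atp5g2, 80% between Atp5g1 and Atp5g3 and 78.7% between Atp5g2 and Atp5g3. The coding regions share 0 words of 31 bases.

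Of the 3 c subunit mRNAs, 2 were called higher in neurites, and the 3 were not tested against each other. Atp5g3 had 495, 493, 494, 512 and 494 TPM in neurites and 364, 393, 331, 353 and 369.9 TPM in soma, with no overlap (0.46 ± 0.0456, limma adjusted p = 0.000661). Atp5g1 had 181, 174, 165, 184 and 196 TPM in neurites and 146, 149.5, 134, 151 and 156 TPM in soma, also without overlap (0.29 ± 0.035, limma adjusted p = 0.00117). Atp5g2 had 509.6, 433, 567, 548 and 445 TPM in neurites and 476, 489.9, 396, 427 and 498 TPM in soma and was not called (0.13 ± 0.106, limma adjusted p = 0.366). Its neurite values were high in the CTG480, Kif1bα and Kif1c tail libraries and low in both controls.

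Expressed as shares of the summed c subunit TPM, Atp5g3 gave 42.3% ± 1.84 in neurites and 37.5% ± 0.951 in soma (SD, n = 5 each). Atp5g2 gave 42.4% ± 3.06 in neurites and 47.2% ± 1.28 in soma, and Atp5g1 15.3% ± 1.40 in neurites and 15.3% ± 0.68 in soma. The share of Atp5g3 was 40.3 to 44.8% in neurites and 36.1 to 38.5% in soma, without overlap, while that of Atp5g2 overlapped. The sum of the 3 was 1178 ± 60.5 TPM in neurites and 967 ± 71.4 TPM in soma.

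**Figure D3:**
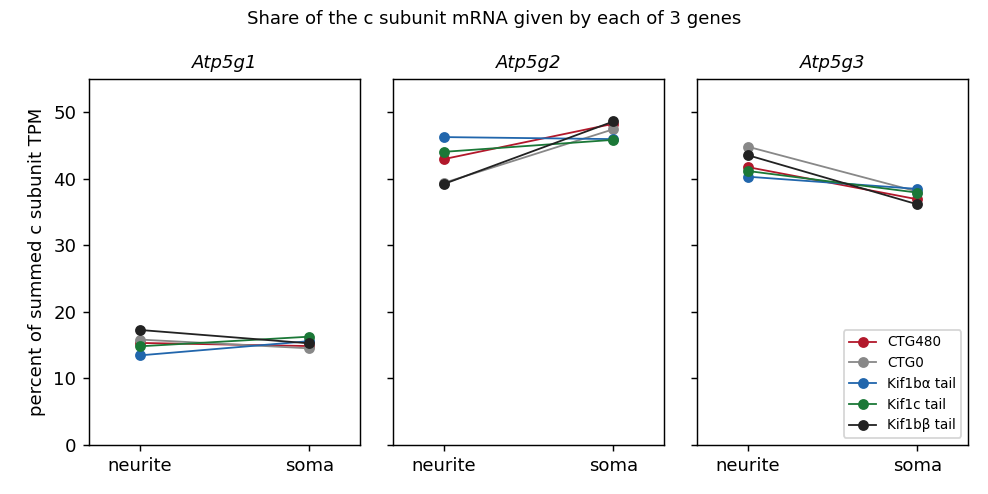
Percent of the summed Atp5g1, Atp5g2 and Atp5g3 TPM given by each gene, neurites left and soma right, with a line for each transfection. The Atp5g3 share is higher in neurites than in soma in each of the 5 transfections.

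For Atp5g1 the neurite excess lay in 1 of 2 transcripts. NM_001161419 had 82.5 ± 6.73 TPM in neurites and 53.3 ± 8.57 TPM in soma, with a ratio between 0.48 and 0.80 in the 5 transfections. NM_007506, at 97.4 ± 8.66 TPM in neurites and 94.1 ± 4.58 TPM in soma, had ratios between −0.08 and 0.20. For Atp5g3 both transcripts were higher in neurites, NM_001301721 at 147 ± 9.71 TPM in neurites and 96.7 ± 14.9 TPM in soma and NM_175015 at 351 ± 12.6 TPM in neurites and 266 ± 26.7 TPM in soma. Reads shared between transcripts of a gene were divided by kallisto, so values of single transcripts are less certain than gene sums, and they were not tested.

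Among the 4 peripheral stalk mRNAs, which hold the head still, only Atp5o (the oligomycin sensitivity conferring protein) was called. It averaged 385 ± 9.11 TPM in neurites and 356 ± 10.1 TPM in soma (0.11, limma adjusted p = 0.044), and the call was lost in all 5 fits that left out a transfection (adjusted p up to 0.122). Atp5h, Atp5f1 and Atp5j, at 0.15, 0.10 and −0.21, were not called. Atp5j was below 0 in 4 of 5 transfections, and of its 4 transcripts NM_001302215 was the one that was lower in neurites, at 39.0 ± 25.8 TPM in neurites and 87.0 ± 16.7 TPM in soma. Its ratio was −4.24 in CTG0 and 0.16 in Kif1c tail cells, a wide spread.

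The small membrane subunits f, e and g of complex V gave a mixed picture. Atp5j2 (subunit f) averaged 596 ± 27.4 TPM in neurites and 508 ± 13.7 TPM in soma, without overlap (0.23, limma adjusted p = 0.00338). Atp5k (subunit e) had 232, 285, 247, 238 and 263 TPM in neurites and 271, 276, 294, 286 and 305 TPM in soma (−0.18 ± 0.0527, limma adjusted p = 0.0296), turned positive at 0.15 on rescaling to 1 common sum, and among the fits that left out a transfection was called only without CTG0 (adjusted p up to 0.0896 otherwise). Atp5l (subunit g) was not called (0.19, limma adjusted p = 0.0533), nor was Atp5sl (0.11, limma adjusted p = 0.374).

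Of the 18 neurite-side genes, 12 were called in all 5 fits that left out a transfection: Atp5e, Atp5g3, Uqcrfs1, Sdhc, Cyc1, Atp5b, Atp5g1, Uqcrc1, Sdhd, Uqcr10, Atp5a1 and Atp5j2. On the soma side this held for Atp5c1, Cox4i2, Cox7b2 and Cox5b. The share of all genes called in all 5 such fits is not given here. Rescaling to 1 common sum left 0 members called higher in soma, and Cox4i2 was not called without transfection as a block.

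Some members share sequence with other genes, which could affect how reads were assigned. Among all annotated genes of GENCODE, pseudogenes included, the shared part of the 31-base words was 87.7% for Atp5g2, 69.6% for Atp5l, 60.8% for Atp5h, 55.7% for Cox7c, 54.3% for Uqcrb, 46.4% for Atp5o and 31.8% for Cycs. Among genes of the deposited table it was 43.7% for Cox7c, 2.81% for Cycs and 0% for the other 5. The transcript index the authors used was not analysed here, so whether these shared words bear on the values was not tested.

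Genes that work with these complexes gave counts that can be set beside those of the members. Of 35 genes listed as assembly factors of complexes II to V, 9 were higher in neurites and 2 higher in soma (25.7% and 5.71%, beside 19.4% and 18.6% of all genes), with a median of 0.14. Those with the largest changes were Sdhaf4 (0.44, limma adjusted p = 0.0017), which helps to mature Sdha, Cox14 (0.43, limma adjusted p = 0.00219) and Coa6 (0.39, limma adjusted p = 0.0116), which serve complex IV. The 2 higher in soma were Pet100 (−0.27, limma adjusted p = 0.0366) and Atpif1, which is counted in this list but is the inhibitor of ATP hydrolysis by complex V. Atpif1 was at 128 ± 5.85 TPM in neurites and 152 ± 8.82 TPM in soma (−0.24, limma adjusted p = 0.00715).

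Among 36 complex I subunits, 13 were higher in neurites and 3 higher in soma (36.1% and 8.33%, beside the same 19.4% and 18.6%), with a median of 0.10. The largest changes were those of Ndufa2 at 0.66, Ndufb3 at 0.52 and Ndufb2 at 0.44 (limma adjusted p = 0.000475, 0.0025 and 0.0013). Genes named for the mitochondrial ribosome (Mrpl and Mrps), taken by name alone, counted 22 on the neurite side and 10 on the soma side of 78 (28.2% and 12.8%), with a median of 0.06. This list was led by Mrpl32 at −0.66, Mrps36 at −0.63 and Mrpl28 at 0.42 (limma adjusted p = 0.00594, 0.00342 and 0.00118). Of 12 genes for coenzyme Q synthesis only Coq5 was called (0.21, limma adjusted p = 0.0107), although the median was 0.16.

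Another list was drawn up for proteins attached to these complexes but named otherwise. Of its 6 genes 2 were higher in neurites and 0 higher in soma (33.3% and 0%, beside 19.4% and 18.6% of all genes). The median of the list was −0.00098. 2010107E04Rik, at 0.21 (limma adjusted p = 0.0423), encodes a small ATP synthase proteolipid. Minos1, at 0.22 (limma adjusted p = 0.0106), belongs to the cristae-organizing MICOS complex and not to the respiratory chain. Without it the count was 1 of 5, near the share of all genes. On rescaling to 1 common sum these values, too, shift with the median of all genes.

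**Figure D4:**
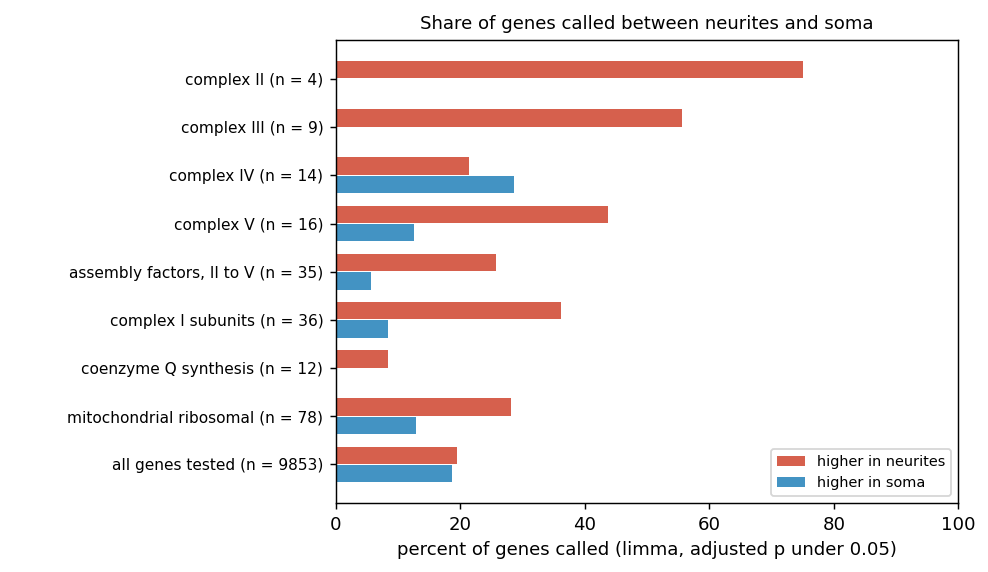
Percent of the genes in each group that limma called higher in neurites (red) or higher in soma (blue) at an adjusted p under 0.05, on the deposited scale, with all 9853 genes at the bottom. Complexes II and III, with 4 and 9 genes, have 0 genes called higher in soma, and complex IV is the one group plotted with more genes called higher in soma than in neurites, 4 against 3, of which Cox5b, Cox6a1 and Cox7b2 turn positive when libraries are rescaled to 1 common sum.

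Coding length was set beside the ratio because the members are short, with a median of 132.5 codons against 453 for all genes. Of 18 members with at least 150 codons, 11 were called on the neurite side and 2 on the soma side, and of 26 shorter members 7 and 4. Over all genes the shorter class held the larger share, 27.0% of 725 genes under 150 codons against 19.4% of 8684 genes at or above it. Across the members the ratio and the number of codons had Pearson r = 0.15 and Spearman rho = 0.21, and across all genes r = −0.21 and rho = −0.22, a description across genes of the same libraries. The limit of 150 codons was chosen after the values were seen.

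The 3 perturbed transfections (CTG480, Kif1bα tail and Kif1c tail) were set against the 2 controls (CTG0 and Kif1bβ tail) to ask whether the localization or the level of these mRNAs differed. No gene of 9853 was called for its localization ratio or for its level over both fractions (limma, adjusted p under 0.05, 0% in both). Without adjustment, p was under 0.05 in 3 of 44 members for the ratio (5.2% of all genes) and in 2 of 44 for the level (3.09% of all genes).

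The 3 members with an unadjusted p under 0.05 for the ratio were Atp5g2, Cox7a2 and Atp5h. The localization ratio of Atp5g2 was 0.10, 0.52 and 0.36 with CTG480, the Kif1bα tail and the Kif1c tail, against −0.18 and −0.16 with CTG0 and the Kif1bβ tail, a difference of 0.50 ± 0.139 (SE, limma adjusted p = 0.904). The ratio of Cox7a2 was 0.23, 0.21 and 0.33 in perturbed cells, against −0.02 and −0.28 in controls (0.41 ± 0.112, limma adjusted p = 0.904). That of Atp5h, a peripheral stalk subunit, was 0.10, 0.00 and −0.07 in perturbed cells, against 0.32 and 0.41 in controls (−0.35 ± 0.0976, limma adjusted p = 0.904). The 3 genes were chosen by p in this same contrast, so a separation of their ratios is no added evidence. In each of the 3 genes the perturbed and control ratios did not overlap, while the adjusted p passed no threshold. The ratios of other members, among them Cyc1, Atp5g3, Uqcrfs1 and Sdhb, did not overlap either. The share of all genes with such a separation is not given here.

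For the level, the 2 members were Cox4i2 and Atp5k. Cox4i2 had 10.8, 7.51 and 8.42 TPM in neurites of the perturbed transfections, against 4.72 and 5.53 TPM in those of the controls, and 11.8, 10.3 and 11.0 TPM in soma of the perturbed transfections, against 6.26 and 8.01 TPM. Perturbed and control values did not overlap in either fraction (0.70 ± 0.135 on the log2 scale, limma adjusted p = 0.999). How often this occurs over all genes is not given here. It made up 1.02% of the summed TPM of the subunit 4 pair in CTG480 neurites and 0.481% in CTG0 neurites, and 1.34% and 0.705% in the corresponding soma. Atp5k differed by −0.12 (limma adjusted p = 0.999).

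The single comparisons rest on 1 library per transfection and fraction, so their values have no replicate check, and genes were counted when the localization ratio differed by at least 0.2 on the log2 scale. With CTG480 over CTG0, 6 of 44 members were higher (18.1% of all genes) and 6 lower (17.9% of all genes). The lowest differences were those of Atp5l, Atp5sl and Uqcrh. Atp5l had a ratio of −0.10 with CTG480 and 0.37 with CTG0, from 349.7 TPM in neurites and 376 TPM in soma with CTG480, against 403 TPM in neurites and 311 TPM in soma with CTG0. Atp5sl, with a ratio of −0.02 with CTG480 and 0.41 with CTG0, had 13.9 TPM in neurites and 14.1 TPM in soma with CTG480, against 15.2 TPM in neurites and 11.4 TPM in soma with CTG0. Uqcrh had 203 TPM in neurites and 208 TPM in soma with CTG480, against 213 TPM in neurites and 169 TPM in soma with CTG0, a difference in ratio of −0.36.

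The highest differences with CTG480 were those of Atp5d, Cox4i2 and Atp5g2. Atp5d, the delta subunit, had 317 TPM in neurites and 252 TPM in soma with CTG480, against 263 TPM in neurites and 263 TPM in soma with CTG0, a difference in ratio of 0.33. That of Cox4i2 was 0.28 and that of Atp5g2 also 0.28. Within 1 fraction, 8 members were higher and 3 lower by at least 0.2 in neurites with CTG480 (12.8% and 12.7% of all genes), and 5 were higher and 0 lower in soma (9.17% and 9.35%).

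With the Kif1bα tail over the Kif1bβ tail, 6 members had a higher ratio (18.7% of all genes) and 4 a lower one (17.2% of all genes). The highest was Cox7a1, with 27.6 TPM in neurites and 27.2 TPM in soma of Kif1bα tail cells, against 16.2 TPM in neurites and 26.3 TPM in soma of Kif1bβ tail cells, a difference in ratio of 0.72. Atp5g2 followed at 0.68 and Cox7a2 at 0.49. The lowest was Atp5h, with 504 TPM in neurites and 503 TPM in soma of Kif1bα tail cells, against 647 TPM in neurites and 488 TPM in soma of Kif1bβ tail cells, a difference of −0.40. Uqcrfs1 was at −0.29 and Cox5a at −0.27. Within neurites 6 members were higher and 3 lower (12.2% and 12.4% of all genes), and within soma 2 were higher and 6 lower (10.3% and 11.6%).

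With the Kif1c tail over the Kif1bβ tail, again the control, 10 members had a higher ratio (19.5% of all genes) and 4 a lower one (19.8% of all genes). Because both kinesin comparisons use the same Kif1bβ tail libraries, a value that was low or high there enters both, and their values are given side by side only. Cox7a1 had 23.5 TPM in neurites and 9.39 TPM in soma of Kif1c tail cells, against 16.2 TPM in neurites and 26.3 TPM in soma of Kif1bβ tail cells, so its ratio differed by 2.01, most of it from 1 low soma value. Cox7a2 was at 0.61, with 144 TPM in neurites and 115 TPM in soma of Kif1c tail cells, against 122 TPM in neurites and 148 TPM in soma of Kif1bβ tail cells. Atp5sl followed at 0.53. The other 7 higher members were Atp5g2, Atp5j, Uqcr11, Cox7b, Cycs, Sdhd and Cox7c, at 0.23 to 0.52.

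The lowest differences with the Kif1c tail were those of Atp5h at −0.48, Uqcrfs1 at −0.32 and Cox4i1 at −0.27. Atp5h had 538 TPM in neurites and 565 TPM in soma of Kif1c tail cells, against 647 TPM in neurites and 488 TPM in soma of Kif1bβ tail cells. Cox4i1 had 923 TPM in neurites and 935 TPM in soma of Kif1c tail cells, against 1030.2 TPM in neurites and 868 TPM in soma of Kif1bβ tail cells. Within neurites 5 members were higher and 2 lower by at least 0.2 (13.3% and 14.2% of all genes), and within soma 2 were higher and 7 lower (10.7% and 12.2%).

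Over the 44 genes, the differences centred near 0 in all 3 comparisons. The median difference in localization ratio was −0.02 with CTG480 (all genes −0.0046), 0.01 with the Kif1bα tail (all genes 0.01) and 0.04 with the Kif1c tail (all genes 0.0021). The differences spread with an SD of 0.193, 0.226 and 0.374 in the 3 comparisons, beside 0.367, 0.348 and 0.39 over all genes.

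**Figure D5:**
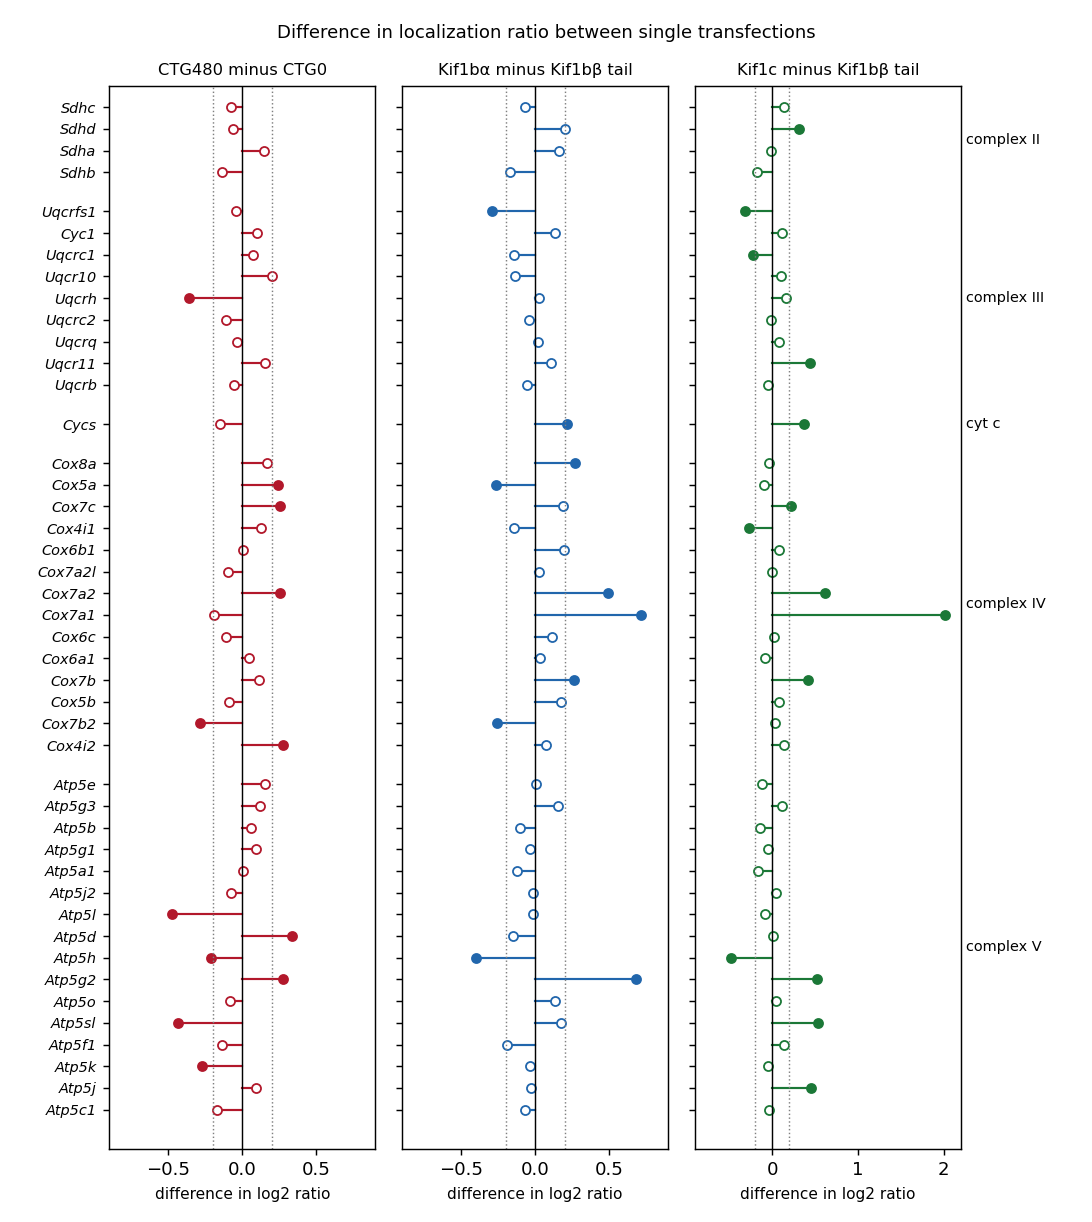
Difference in localization ratio (log2) of each of the 44 genes between a transfection and its control, for CTG480 minus CTG0, Kif1bα minus Kif1bβ tail and Kif1c minus Kif1bβ tail. Filled circles differ by at least 0.2 (dotted lines), each value comes from 1 library per transfection and fraction, the right panel has a wider axis, and Cox7a1 with the Kif1c tail, at 2.01, is the value farthest from 0.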

How the data were processed

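RNA from neurites and soma of 5 transfections (300 ng, depleted of ribosomal RNA) was sequenced as 10 libraries. The deposited signal values are linear TPM that the authors obtained with bcl2fastq 2.20 and kallisto 0.43.0 on mm10 RefSeq transcripts and normalized between libraries by cyclic loess, so a library no longer sums to 1000000 and its depth is unknown. A second deposited table, of the authors' log2 ratios, was not used. Of 17300 rows, 5 plasmid rows and 3 without a gene were left out. Rows were summed by gene, and 9853 of 13698 genes with a mean of at least 5 TPM were tested.

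The limma package 3.58.1 (R 4.3.3) was used on log2(TPM + 0.1), with moderated variances that follow a mean trend, 2-sided p-values and Benjamini-Hochberg adjustment, and with transfection as a block for neurites against soma. Transfection pairs the fractions by design. Deviations from the fraction means correlated at −0.03 to 0.05 within transfections and −0.12 to 0.10 between them. Perturbed and control transfections (3 against 2) were compared on the localization ratios and on mean levels. In simulated data for neurites against soma over 9853 genes, 84 of 100 genes changed by 0.5 and 93 of 100 changed by 1 on the log2 scale were recovered, with 8 false calls. The simulated noise was independent between libraries, without differences between transfections, and far fewer genes were changed than were called in the data. Differences under 0.5, as in most members, were not simulated, so how often such differences are recovered is unknown. Fold changes include the pseudocount. Coordinates, codons and sequences came from GENCODE on GRCm38, and 31-base words were counted over its transcripts. Python 3.11.15 with pandas 2.3.3 and numpy 2.4.6 was used otherwise.

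Members and gene lists were chosen with earlier results of these data known. Values in each library are given for the 6 called members with the largest and the 6 with the smallest differences, the Sdh genes, Cyc1, Cycs and the c subunit genes. For transfections, the 3 highest and 3 lowest differences are named, and for lists the 3 called genes with the largest changes. Atpif1 was added after its value was seen. Alternatives were other pseudocounts, minima, scalings, coding transcripts only, no trend, no block and each transfection left out.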

Additional observations from a re-analysis of the deposited data

Results flagged for a closer look

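In 88 groups of 5 libraries (44 genes in 2 fractions), 4 had a library that stood apart by Dixon's criterion, where chance gives about 1 in 20. The number found is thus near that given by chance. All 4 were Kif1c tail libraries, and how often these libraries stand apart over all genes is not given here. Atp5g3 was highest in Kif1c tail neurites at 512 TPM, with the others at 493 to 495 TPM. In Kif1c tail soma, Cox4i1 was highest at 935 TPM (others 864 to 882 TPM), Sdhb was highest at 309 TPM (others 278 to 283 TPM) and Uqcr11 was lowest at 97.3 TPM (others 123 to 132 TPM).

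For 2 genes the localization ratio was above 0 in all 3 perturbed transfections and below 0 in both controls. The mean difference was 0.50 for Atp5g2 and 0.41 for Cox7a2. Neither was called by limma (adjusted p = 0.904 each), and the opposite signs as such were not tested. The share of all genes with such signs is not given here.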

How the results depend on the processing

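Read depth is unknown, so counting error could not be given for low members such as Cox4i2 and Atp5sl, and no alternative planned for these values was left out. Main counts were 18 members higher in neurites and 6 higher in soma. Rescaling each library to a sum of 1000000 gave 36 and 0, with 7057 and 206 of all genes, and turned the signs of Atp5j (0.12), Atp5k (0.15), Cox5b (0.13), Cox6a1 (0.20), Cox6c (0.33), Cox7b (0.15), Cox7b2 (0.0065), Cycs (0.17) and Uqcrb (0.32). With equal medians, Cox6c turned to 0.0029. Without transfection as a block 20 were higher in neurites and 8 higher in soma, with 2103 and 1965 of all genes. The pseudocounts of 1 and 0.01 TPM, the minima, coding transcripts only and the fit without a trend gave 15 to 22 higher in neurites and 5 or 6 higher in soma. Among all 5527 to 13698 genes tested in these fits, 1406 to 1971 were higher in neurites and 1282 to 1841 higher in soma.

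Leaving out each transfection in turn gave 14 to 17 higher in neurites and 4 to 7 higher in soma. Of all 9853 genes, 1281 to 1707 and 1357 to 1646 were called in these fits. Signs turned only for members that were not called: Cox6c (−0.0204 to 0.0171), Cox7a1 (−0.26 to 0.25), Sdhb (−0.0272 to 0.0393), Uqcr11 (−0.0802 to 0.0648) and Uqcrb (−0.0331 to 0.0073). Perturbed against control transfections gave 0 called members for ratio and level under each alternative run.

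Counts in single comparisons follow the threshold by construction, and the shares of all genes at the 2 thresholds below are not given here. At 0.1, members with a higher and a lower ratio numbered 15 and 13 with CTG480, 17 and 12 with the Kif1bα tail and 17 and 8 with the Kif1c tail. At 0.4 there were 0 and 2 with CTG480, 3 and 1 with the Kif1bα tail and 7 and 1 with the Kif1c tail. For levels at 0.4, CTG480 had 1 higher and 0 lower in neurites and 2 and 0 in soma, the Kif1bα tail 2 higher and 0 lower in neurites and 0 and 0 in soma, and the Kif1c tail 2 higher and 0 lower in neurites and 1 and 1 in soma.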
